A study of Arabidopsis thaliana with 8 samples.

Results

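The 10 genes described here serve the uptake and perception of nitrate, its assimilation into amino acids, or the uptake of ammonium. They were chosen by identity, as NRT1.1, CIPK23, NLP6, NLP7, NIA1, NIA2, NIR1, AMT1;1, GLN2 and GLU1, and every row of the deposited peak lists that names one of them was taken. This gave 47 peaks of 41217 in both lists, 25 in the mutant and 22 in wild type. N6-methyladenosine (m6A), a methylated adenosine within messenger RNA, was mapped in whole seedlings of Arabidopsis thaliana aged 14 days, in the homozygous mutant atalkbh10b-1 and in the wild type, both of the Columbia-0 ecotype. The mutated gene, ALKBH10B, encodes an enzyme that removes the methyl group from m6A. Each genotype had 2 libraries of RNA fragments captured by an m6A antibody and 2 libraries of input RNA, labelled as biological replicates. No treatment is named for any group, and the sources used here give neither the nitrogen supply of the seedlings nor the number of plants per replicate. Nothing states that the replicates were grown apart, so p-values measure only the spread between these libraries.

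Plants take up nitrate through membrane transporters, reduce it to nitrite in the cytosol and to ammonium in the plastid, and join the ammonium to glutamate. NRT1.1 both transports nitrate and signals its presence, CIPK23 is a kinase that phosphorylates NRT1.1, and NLP6 and NLP7 are transcription factors that turn on nitrate-responsive genes. NIA1 and NIA2 encode nitrate reductase, NIR1 nitrite reductase, GLN2 the plastid glutamine synthetase, GLU1 the ferredoxin-dependent glutamate synthase and AMT1;1 a high-affinity ammonium transporter.

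Each listed peak has a start and an end in bases along the gene's model and a log2 enrichment, pull-down over input by the assay, for each replicate. A log2 enrichment of 1 is a doubling over input. The lists do not measure transcript amount, so neither the loss of ALKBH10B nor the tissue could be checked from them. The ALKBH10B transcript itself had a shared peak, with log2 enrichments of 1.61 and 3.44 in the mutant and 1.37 and 1.00 in wild type. Read depth is unknown from these values.

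Most of the 10 chosen genes were listed with m6A peaks in both genotypes. Of the 10 genes, 9 had peaks in both lists, 0 had them in the mutant only and 1 had them in wild type only. Over all 14304 genes in either list, a set without unlisted genes, 77.4% were in both, 9.54% were particular to the mutant list and 13% to the wild-type list. The 1 gene absent from the mutant list was NLP6. In the wider list of 83 nitrogen genes described below, 21 were in neither list. A scarce transcript can also leave a gene unlisted, and in whole seedlings fewer cells with the transcript and less of it per cell cannot be told apart. In the mutant, 18 of the 25 peaks overlapped a wild-type peak by at least 1 base, and in wild type 17 of the 22 overlapped a mutant peak. The remaining 7 and 5 peaks compare with 30.7% of all mutant peaks and 30.6% of all wild-type peaks without a partner, so peaks without a partner were about as frequent here as in the whole lists.

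**Figure D1:**
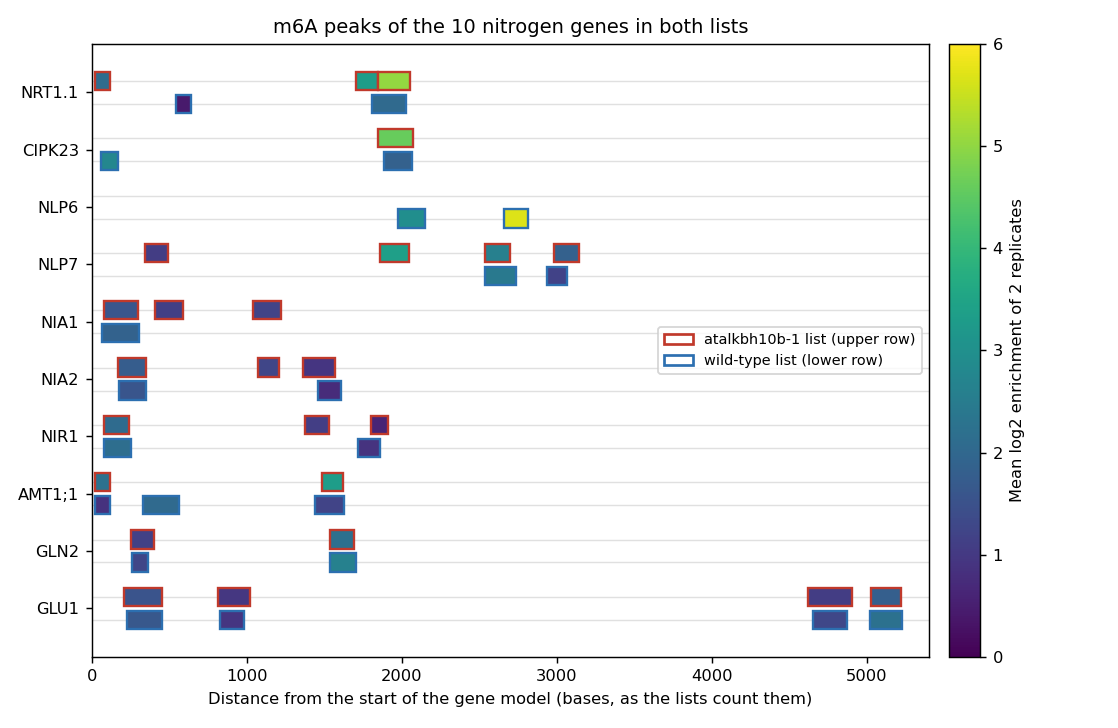
Peaks of the 10 genes as boxes along the gene model (x axis, bases from its start as the lists count them), with the mutant list in the upper row of each gene and the wild-type list in the lower row, coloured by mean log2 enrichment. GLU1 had 4 peaks in each list at matching places, whereas NLP6 had 0 peaks in the mutant and 2 in wild type.

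The comparison of genotypes used the 17 pairs in which a mutant and a wild-type peak of these genes were each other's largest overlap. They lay in 9 genes and are given here by role, a division that was not among the planned comparisons. The 11 pairs of the 5 enzyme genes all had genotype means within 1.5-fold of each other. Of the 6 pairs of the transport and regulatory genes, 5 had mutant means at least 1.5-fold higher, in NRT1.1, CIPK23, AMT1;1 and NLP7, and 0 were lower. Over all 13875 such pairs in the lists, 35.5% lay within 1.5-fold, 32.4% were higher in the mutant and 32.1% were lower. The 5 higher pairs among 17 are thus close to the share among all pairs, and the 0 lower ones describe a small group. The wider nitrogen list described below did not repeat the division by role. Of its 26 pairs in glutamine, glutamate and asparagine metabolism, 12 lay within 1.5-fold. Its 28 signalling pairs had 10 higher and 7 lower, and its 8 nitrate transporter pairs 2 higher and 3 lower. None of the 17 passed limma's moderated test with Benjamini-Hochberg adjustment over all pairs (smallest adjusted p = 0.9996), and none had an unadjusted p under 0.05. Over all pairs limma called 0 (0%), and 491 (3.54%) had an unadjusted p under 0.05. The median log2 difference, mutant minus wild type, was 0.01 over the 17 pairs and -0.02 over all pairs. A ratio of 1.5 is a log2 difference of 0.58, and the pairs nearest to it had sizes of 0.43 (within) and 0.64 (past it).

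NRT1.1 (AT1G12110) had the largest difference of the 17 pairs. Its peak at bases 1844 to 2050 of the mutant list had log2 enrichments of 4.33 and 5.70 in the mutant, and the overlapping peak at bases 1811 to 2026 had 2.96 and 1.14 in wild type. The mutant values both exceeded those of wild type, as at 13.7% of all pairs. The difference was 2.96 on the log2 scale (SE 1.18, limma's adjusted p = 0.9996, unadjusted p = 0.0638), and it ranged from 2.05 to 3.87 when each replicate was left out in turn. The mutant list held a further peak directly beside it, at bases 1706 to 1843, with 3.56 and 3.06. That peak reached 33 bases into the wild-type one. At the start of the transcript, the mutant list had a peak at bases 21 to 120 with closely repeated values of 2.04 and 2.15 and no wild-type partner. The wild-type list had one at bases 541 to 640, with -0.30 and 1.13, that no mutant peak overlapped. NRT1.1 was thus listed with 3 peaks in the mutant and 2 in wild type, and of these only the far region was common to both.

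CIPK23 (AT1G30270), whose kinase also acts on potassium and ammonium transporters, resembled NRT1.1 at its far peak. The peak at bases 1848 to 2071 had 6.04 and 3.18 in the mutant, and its partner at bases 1883 to 2066 had 1.75 and 1.93 in wild type. Both mutant values again exceeded both wild-type values, although the mutant replicates lay 2.86 apart and the wild-type replicates 0.18 apart. The log2 difference was 2.77 (SE 1.33, unadjusted p from limma 0.102, adjusted p = 0.9996), and 1.34 without mutant replicate 1. A second CIPK23 peak, at bases 58 to 170, was listed in wild type with 1.67 and 3.86 and had no mutant partner. These were the 2 pairs among the 17 with all mutant values higher.

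AMT1;1 (AT4G13510) had higher mutant means at both shared peaks, and in each the groups overlapped. At bases 21 to 120, which both lists gave with the same borders, the values were 1.08 and 3.40 in the mutant and 1.29 and 0.40 in wild type. The far peak, at bases 1484 to 1617 in the mutant and 1443 to 1626 in wild type, had 2.118 and 4.534 in the mutant and 2.281 and 0.148 in wild type. At both peaks mutant replicate 2 was the highest value and wild-type replicate 2 the lowest, while the 2 values of replicate 1 were close to each other. The log2 differences were 1.39 (SE 1.23) and 2.11 (SE 1.42), and without mutant replicate 2 they were 0.24 and 0.90. A peak at bases 334 to 560, with 1.72 and 2.38, was listed in wild type alone. The span of AMT1;1 overlaps that of a long noncoding RNA gene, AT4G13505. Whether counting used strand is not given in the sources used here, so reads of the overlapping part cannot be told apart.

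The transcription factor genes NLP6 and NLP7 differed from each other in the lists. NLP6 (AT1G64530) had 0 peaks in the mutant and 2 in wild type, at bases 1978 to 2147 with 5.46 and 0.40 and at bases 2659 to 2813 with 8.48 and 2.88. Its second peak had the highest mean of all 47, 5.68 ± 3.95 (SD, n = 2), above 91.8% of all wild-type peaks. In both NLP6 peaks replicate 1 was far above replicate 2, by 5.05 and 5.59 on the log2 scale. NLP7 (AT4G24020), which nitrate causes to remain in the nucleus, had 4 peaks in the mutant and 2 in wild type. Its shared peak at bases 2540 to 2698 of the mutant list had 4.35 and 0.85 in the mutant and 1.86 and 2.99 in wild type, a log2 difference of 0.17 (SE 1.55). The wild-type values fell between the mutant ones, and the difference was -1.58 without mutant replicate 1.

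The last NLP7 peak, at bases 2981 to 3143 of the mutant list, had 1.87 and 1.80 in the mutant and 1.91 and 0.47 in wild type. The groups overlapped, since wild-type replicate 1 was the highest of the 4 values. The log2 difference was 0.64 (SE 1.01), and -0.08 without wild-type replicate 2. The NLP7 peaks listed in the mutant with no partner lay at bases 345 to 490, with closely repeated values of 1.15 and 1.00, and at bases 1860 to 2047, with 4.96 and 1.77.

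**Figure D2:**
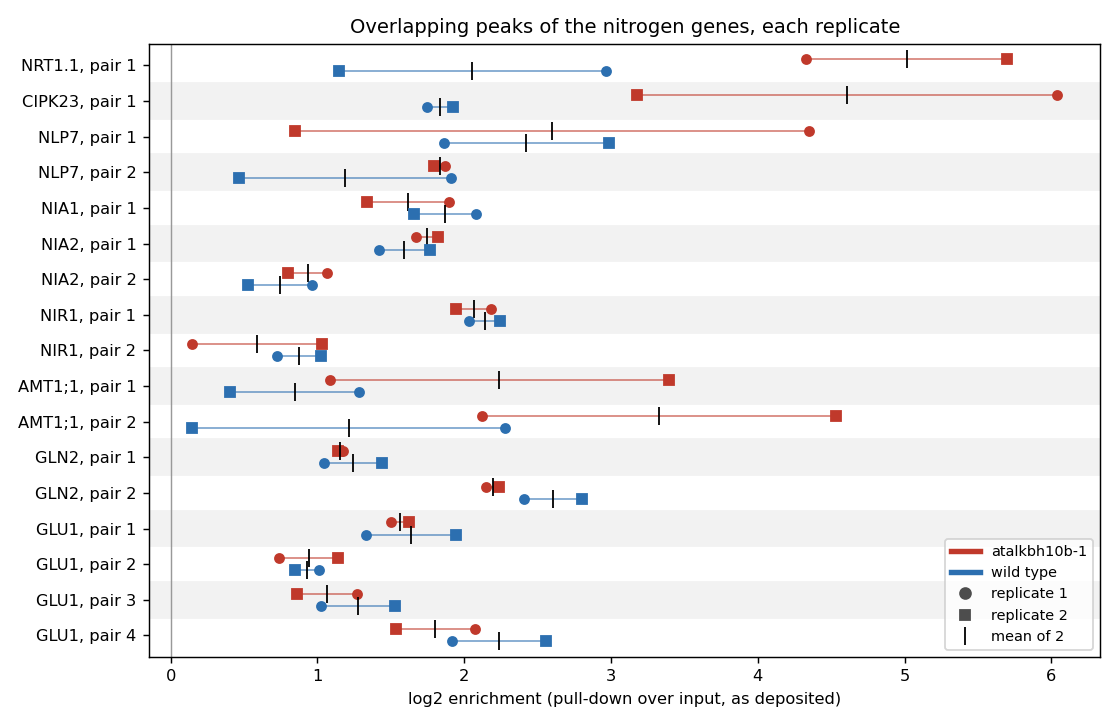
The log2 enrichment (x axis) of each of the 17 overlapping pairs in mutant replicates (red) and wild-type replicates (blue), with circles for replicate 1, squares for replicate 2 and a black tick for their mean. NRT1.1 and CIPK23 have both mutant values above both wild-type values, and the enzyme genes have all values between 0.15 and 2.80.

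The nitrate reductase genes had close values near the start of the transcript. At its first peak NIA2 (AT1G37130), which provides most nitrate reductase activity, had 1.67 and 1.82 in the mutant, at bases 173 to 352, and 1.42 and 1.77 in wild type, at bases 175 to 351. The borders differed by 2 bases at the start and 1 at the end, and the groups overlapped. NIA1 (AT1G77760) had 1.89 and 1.34 in the mutant at bases 77 to 297 and 2.08 and 1.66 in wild type at bases 70 to 304. The log2 differences were 0.15 (SE 0.89) in NIA2 and -0.25 (SE 0.91) in NIA1, smaller than their errors.

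Further along, the nitrate reductase genes had more listed peaks in the mutant, all of low enrichment. NIA1 had 3 peaks in the mutant and 1 in wild type. The additional ones lay at bases 411 to 586, with 1.05 and 1.17, and at bases 1041 to 1220, with 0.99 and 1.42. NIA2 had a mutant peak with no partner at bases 1071 to 1210, with 1.02 and 1.48. These values repeated closely and sat near a log2 enrichment of 1. Between 15.7% and 19.6% of all mutant peaks had lower means. A later NIA2 peak was shared, with 1.07 and 0.80 in the mutant at bases 1361 to 1570 and 0.96 and 0.53 in wild type at bases 1461 to 1610, overlapping groups with a difference of 0.19 (SE 0.90). NIA1 and NIA2 are paralogs, and how reads that fit both were assigned is not given in the sources used here.

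NIR1 (AT2G15620) followed the same arrangement. Its first peak had 2.18 and 1.95 in the mutant at bases 77 to 238 and 2.03 and 2.24 in wild type at bases 83 to 250, a log2 difference of -0.07 (SE 0.89) with overlapping groups. A second mutant peak, at bases 1376 to 1530 with 1.24 and 0.95, had no partner. The last had 0.15 and 1.03 in the mutant at bases 1801 to 1910 and 0.72 and 1.03 in wild type at bases 1721 to 1856. This pair had the lowest mutant mean of the 25 mutant peaks, 0.59 ± 0.62 (SD, n = 2), and its borders coincided least, with 29.5% of their joint length in common.

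The genes that assimilate ammonium were listed alike in both genotypes, with every peak of GLN2 and GLU1 shared. GLN2 (AT5G35630) had 1.17 and 1.14 in the mutant at bases 256 to 400 and 1.04 and 1.44 in wild type at bases 258 to 360. At the far end it had 2.15 and 2.24 in the mutant at bases 1537 to 1692 and 2.41 and 2.80 in wild type at bases 1538 to 1701. There both mutant values lay below both wild-type values, as at 15% of all pairs, with a log2 difference of -0.41 (SE 0.89, limma's adjusted p = 0.9996). It was the only one of the 17 pairs with that order.

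GLU1 (AT5G04140) had 4 shared peaks, and in each the groups overlapped. In the mutant, the values at the peaks beginning at bases 211, 816, 4621 and 5028 were 1.5003 and 1.6247, 0.74 and 1.14, 1.27 and 0.86, and 2.07 and 1.53. In wild type, the partners beginning at bases 226, 831, 4651 and 5021 had 1.33 and 1.95, 1.01 and 0.85, 1.03 and 1.53, and 1.92 and 2.55. The outer peaks thus had higher means than the inner ones in both genotypes, and the log2 differences ran from -0.43 (SE 0.93) to 0.01 (SE 0.89). Having 4 or more peaks placed GLU1 among 5.01% of mutant genes and 3.90% of wild-type genes. The span of GLU1 overlaps that of the protein-coding gene AT5G04150, so the source of reads at that end is uncertain.

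The roles also differed in how closely replicates repeated. Over the peaks of the 5 enzyme genes the median gap between replicates was 0.29 on the log2 scale in the mutant and 0.40 in wild type, and the largest gaps were 0.88 and 0.64. Over those of the 5 transport and regulatory genes the medians were 1.84 and 1.45, close to the 1.79 and 1.46 of all peaks. The enzyme peaks were also less enriched, with a median of 1.204 in the mutant and 1.593 in wild type, against 2.45 in each of the whole lists. The part of enrichment level in the size of these gaps was not tested.

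**Figure D3:**
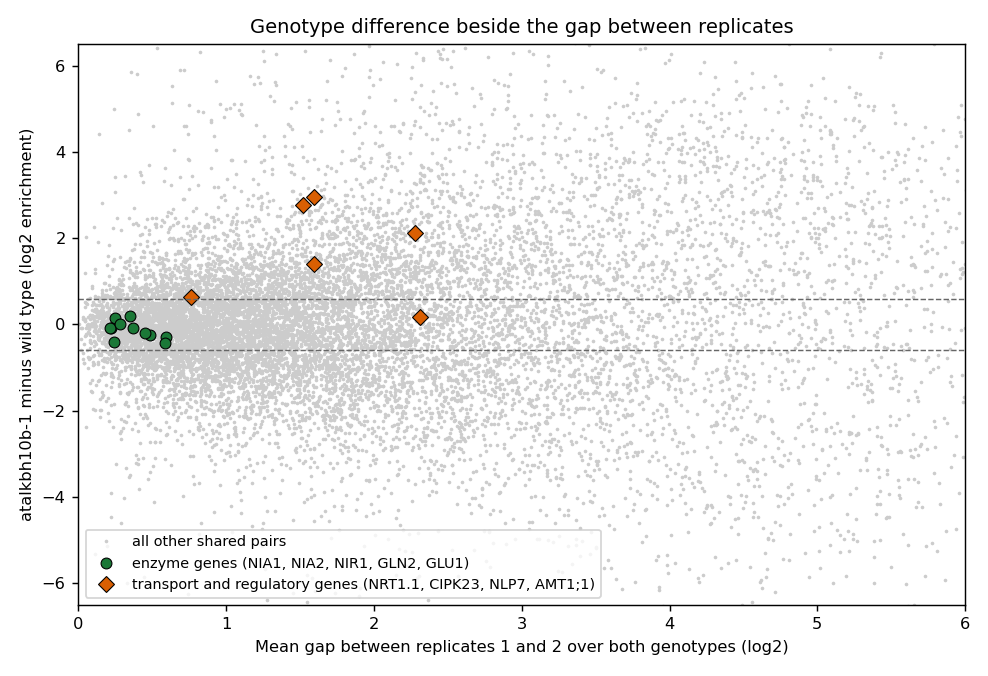
Log2 difference of each overlapping pair, mutant minus wild type (y axis), against the gap between replicates averaged over both genotypes (x axis), with enzyme genes as green circles, transport and regulatory genes as orange diamonds and all other pairs in grey, 579 pairs lying outside the axes. Dashed lines mark a ratio of 1.5. The 11 enzyme pairs sit at small gaps between -0.43 and 0.19, and the 6 other pairs lie between 0.17 and 2.96.

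Most of these genes had a peak near the start of the transcript. A peak beginning within the first 300 bases, a window chosen after the positions had been seen, was listed for 7 of the 10 genes in the mutant and for 7 in wild type. The shares among all listed genes were 25.9% in the mutant and 24.6% in wild type. The 10 include NLP6, which the mutant list lacks. A gene with more peaks can more easily have one there. Counted by peak, the shares were 28% in the mutant and 31.8% in wild type, against 16.2% and 16.1% of all peaks. NIA1, NIA2, NIR1, AMT1;1, GLN2 and GLU1 had such a peak in both lists, NRT1.1 in the mutant alone and CIPK23 in wild type alone. The NLP6 and NLP7 peaks all began further along. Peak borders coincided slightly more than usual, with a median of 78.7% of the joint length in common over the 17 pairs, against 73.1% over all pairs, and 89.7% over the enzyme pairs. Median widths were 163 bases in the mutant and 169 in wild type, against 157 in each whole list.

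A wider list of 83 nitrogen genes placed the 10 in context. Of these, 51 were in both lists, 6 in that of the mutant only, 5 in that of wild type only and 21 unlisted. Their 70 shared pairs had 20 higher and 21 lower mutant means, with 29 within 1.5-fold and a median log2 difference of 0.01. None passed limma's test over all pairs, and 2 had an unadjusted p under 0.05. These shares are close to those of all pairs. The spans of 29 of the 83 genes overlap that of another gene, so their reads are uncertain. Among them are NRT1.12, CLCB, NPF6.2, CBL1, CEPR2, TGA4, CPK30, UPM1, CNX2, CNX5, CNX7 and GLT1.

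Nitrate transporters were the group most often unlisted, with 10 of 21 genes in neither list. Among these, named after the lists had been seen, were the high-affinity transporter genes NRT2.1, NRT2.2, NRT2.4 and NRT2.5. The seed nitrate transporter gene NRT2.7 (AT5G14570) was listed in wild type alone, with close values of 1.15 and 1.05, as was NRT3.1 (AT5G50200), a partner protein of the NRT2 transporters, with 3.40 and -1.07. Of 8 shared pairs, 2 were higher and 3 lower, against 32.4% and 32.1% of all pairs. NRT1.12 (AT3G16180) had 7.76 and 7.13 in the mutant and 0.90 and 4.66 in wild type, with the groups apart and a log2 difference of 4.66 (SE 1.59, unadjusted p from limma 0.0404, adjusted p = 0.9996). NPF1.2 (AT1G52190) differed by 4.29 at its first shared peak, which rested on 1 library, with 2.28 and 11.66 in the mutant and 2.61 and 2.75 in wild type. Its other shared peak, at bases 1878 to 2046 of the mutant list, had 0.19 and 2.32 in the mutant and 1.68 and 2.19 in wild type, a difference of the opposite sign (-0.68, SE 1.16). CLCB (AT3G27170), a vacuolar anion transporter gene, had 0.71 and 5.62 in the mutant and 9.23 and 5.57 in wild type, and NPF6.2 also had a lower mutant mean, by -2.32. The groups overlapped in all of these but NRT1.12.

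The largest difference of the wider list, a lower mutant mean, lay in a signalling gene that acts with CIPK23. CBL1 (AT4G17615) and CBL9 (AT5G47100) encode calcium sensors that recruit CIPK23 to the membrane. CBL1 had 1.71 and 2.31 in the mutant and 6.71 and 9.91 in wild type, and CBL9 had 2.61 and -0.20 in the mutant and 7.95 and 3.33 in wild type. In both, the mutant values lay below the wild-type values, as at 15% of all pairs. At the shared CIPK23 peak they lay above, as at 13.7% of all pairs, while the other CIPK23 peak was listed in wild type alone. The log2 differences were -6.30 (SE 1.43, unadjusted p from limma 0.0106, adjusted p = 0.9996) for CBL1 and -4.44 (SE 2.07) for CBL9. 

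Of the 28 signalling pairs, 10 were higher and 7 lower, against 32.4% and 32.1% of all pairs. CPK32 (AT3G57530), one of the calcium-dependent kinases that phosphorylate NLP7, had 2.904 and 5.364 in the mutant and 1.83 and 1.26 in wild type. CEPR2 (AT1G72180), a receptor of peptides that report nitrogen shortage, had at its far peak 3.24 and 3.63 in the mutant and 2.24 and 0.86 in wild type. Both had their groups apart, with differences of 2.59 (SE 1.24) and 1.89 (SE 1.01), while the other shared peak of CEPR2 differed by 0.34 (SE 1.56).

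Of the 31 signalling genes, 5 were listed in the mutant alone and 1 in wild type alone. Among the signalling genes in either list these were 19.2% and 3.85%, against 9.54% and 13% of all listed genes. The counts are small, and this difference was not tested. TCP20 (AT3G27010), a factor that binds NLP6 and NLP7, had 4.88 and 8.04 in the mutant, and the repressor gene LBD37 (AT5G67420) had 1.13 and 0.97. LBD39 (3.64 and -0.15), TGA4 (6.30 and 0.81) and the kinase gene CPK30 (-7.95 and 1.99) each rested on 1 of the 2 replicates used. NLP8 (AT2G43500), which acts in nitrate-promoted germination, was listed in wild type alone with 9.61 and 2.66. As in NLP6, replicate 1 was the higher of the 2 values.

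**Figure D4:**
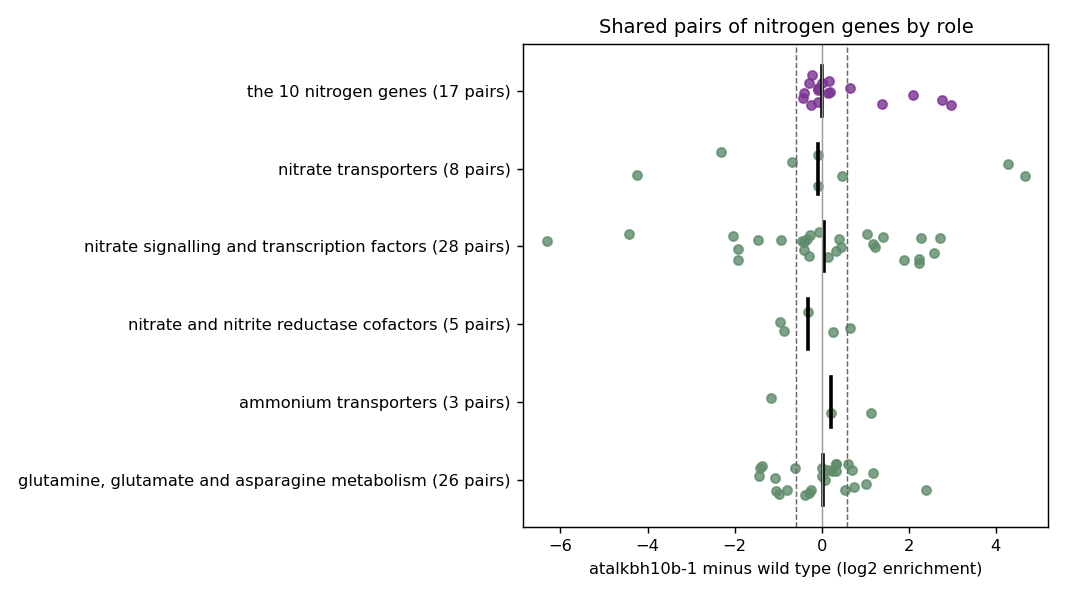
Log2 difference, mutant minus wild type (x axis), of the shared pairs of the 10 genes (top row) and of the wider nitrogen list by role. Points are pairs, black bars medians and dashed lines a ratio of 1.5. The 10 genes have no pair below -0.43, while the signalling genes run from -6.30 to 2.73.

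Genes of cofactor synthesis and of ammonium transport were few. The molybdenum cofactor is needed by nitrate reductase, and its synthesis genes CNX3 (AT1G01290) and CNX7 (AT4G10100) were listed in wild type alone, with 7.32 and 4.58 and with 1.69 and 4.49. UPM1 (AT5G40850), which serves the siroheme cofactor of nitrite reductase, had 1.301 and 1.396 in the mutant and 2.97 and 1.63 in wild type, groups apart by a difference of -0.95 (SE 0.99). CNX2 (-0.87) and CNX5 (0.66) had overlapping groups. AMT1;3 (AT3G24300), an ammonium transporter gene of the same family as AMT1;1, had 3 peaks in the mutant alone, with 8.62 and 5.19 at bases 28 to 182, -3.11 and 2.53 at bases 1421 to 1572, and 3.57 and 6.63 at bases 1631 to 1750. AMT1;2 (-1.15 and 0.22 at its 2 shared peaks) and AMT2 (1.13) were shared, with overlapping groups.

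Genes of glutamine, glutamate and asparagine metabolism were listed most alike, as GLN2 and GLU1 were. Of 19 genes, 15 were in both lists and 4 in neither, and of 26 pairs 6 were higher, 8 lower and 12 within 1.5-fold. The shares of all pairs were 32.4% higher, 32.1% lower and 35.5% within 1.5-fold. ASP2 (AT5G19550), a cytosolic aspartate aminotransferase gene, had at its first shared peak 2.66 and 3.85 in the mutant and 1.18 and 0.53 in wild type, and DIT2.1 (AT5G64290), a plastid dicarboxylate transporter gene, had at its far peak 4.02 and 3.30 in the mutant and 2.04 and 2.93 in wild type. At both of these peaks the mutant values were the higher, with means of 3.26 ± 0.84 in the mutant and 0.86 ± 0.46 in wild type for ASP2, and of 3.66 ± 0.51 in the mutant and 2.48 ± 0.63 in wild type for DIT2.1 (SD, n = 2 each). The other shared peak of ASP2, at bases 1342 to 1533 of the mutant list, had the opposite sign, with 2.703 and 1.650 in the mutant and 2.508 and 3.449 in wild type, overlapping groups with a difference of -0.80 (SE 1.01). The other shared peak of DIT2.1 had a difference of 0.62 (SE 0.89).

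In the opposite direction stood GLN1;1 and GLU2, which are relatives of GLN2 and GLU1, though not every relative had lower mutant means. The cytosolic glutamine synthetase gene GLN1;1 (AT5G37600) had 1.21 and 0.37 in the mutant and 2.36 and 2.06 in wild type. These GLN1;1 peaks lay at bases 1311 to 1410 in the mutant and 1181 to 1364 in wild type. Only 23.5% of their joint length was in common, so the values largely describe different regions. GLU2 (AT2G41220), the second ferredoxin-dependent glutamate synthase gene, had at bases 4852 to 5178 of the mutant list 2.35 and 1.81 in the mutant and 3.84 and 3.06 in wild type. Their groups were apart, with differences of -1.42 (SE 0.93) and -1.37 (SE 0.94), neither past limma's test (adjusted p = 0.9996 in each). The other shared peaks of GLU2 differed by -1.08 and -0.24, with overlapping groups.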

How the data were processed

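The authors deposited 1 m6A peak list per genotype, with a log2 enrichment per peak and replicate, per the file headers. The submitters' processing notes name TopHat2 2.0.14, edgeR and the build TAIR10, with no role given. The sources used here do not give the peak caller, its thresholds, the enrichment formula, the scaling or whether introns count in positions, and a shift shared by all peaks may have been scaled away. Of the value columns, 2 match no labelled sample and were not used, so a peak can rest on a replicate not shown.

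Peaks overlapping by at least 1 base in the same gene were shared. Pairs of mutual largest overlap were compared with limma 3.58.1 in R 4.3.3 (no replicate block, no pseudocount, Benjamini-Hochberg adjustment over all pairs, threshold 0.05). The code was tested on simulated data with far less spread between replicates than most real peaks, so that test does not show the power of the fit here. Alternatives were a replicate block, centring, 50% overlap, a ratio of 2, gene means, a log2 floor of 1 in both replicates, a variance trend, and leaving out each replicate. Python 3.11.15, numpy 2.4.6, pandas 2.3.3 and matplotlib 3.10.9 were used.

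The members and lists were chosen with earlier results of these data known. All 10 members were named, with genes of the wider list in 1 peak list alone and up to 2 per role and direction past 1.5-fold, those with groups apart taken before others by size. Names and overlapping genes were looked up in a RefSeq table (TAIR10.1). It held all 10 members and 82 of the 83 wider genes, and did not give the name first used for 7 of these.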

Additional observations from a re-analysis of the deposited data

How the results depend on the processing

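Every alternative fit called 0 pairs over all genes, the replicate block included (567 pairs with an unadjusted p under 0.05 with the block, 491 without, 309 with a variance trend, 1215 without mutant replicate 1 and 1016 without mutant replicate 2). Replicate numbers did not pair the libraries, with a correlation of their deviations across pairs of 0.01. Higher pairs of the 10 genes numbered 5 with each replicate left out and 4 at a ratio of 2, but not always the same pairs. The first AMT1;1 pair had 0.24 without mutant replicate 2 and the last NLP7 pair -0.081 without wild-type replicate 2, and the other NLP7 pair then passed 1.5-fold, with 1.92 and 0.74. With gene means in place of pairs, 3 genes were higher (NRT1.1, CIPK23 and AMT1;1). Lower pairs ranged from 0 to 2 with a replicate left out. With both replicates at a log2 enrichment of 1 or more, peaks with a partner became 10 in the mutant and 9 in wild type, and listing by gene kept its counts.

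Signs turned at 11 of the 17 pairs, all with main differences of 0.64 or less. With columns centred, the first NIR1 pair had 0.0078 and the first GLU1 pair 0.0048. With gene means, the second GLU1 pair had -0.18. With a replicate left out, the ranges were -0.022 to 0.33 and -0.027 to 0.41 in NIA2, -0.53 to 0.025 in NIA1, -0.19 to 0.045 and -0.73 to 0.15 in NIR1, -1.58 to 1.92 and -0.081 to 1.37 in NLP7, -0.38 to 0.23, -0.19 to 0.22 and -0.46 to 0.039 in the first 3 GLU1 pairs, and -0.29 to 0.11 in the first GLN2 pair. The cause was not tested. NRT1.1, CIPK23 and AMT1;1 kept a positive difference under all of these. With 2 replicates a genotype and unknown depth, differences of the sizes seen here could not be told from replicate spread.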

Other observations

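NRT1.1 in the mutant and AMT1;1 in both genotypes had a peak at exactly bases 21 to 120, which is 100 bases wide, the narrowest width in either list. Peaks with those same borders numbered 21 in the mutant list and 25 in the wild-type list. In the mutant, the peaks of NRT1.1 at bases 1706 to 1843 and 1844 to 2050 adjoin with no gap, where the wild-type list has 1 peak.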
